A study of Mus musculus with 16 samples.

Results

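The effect of the 5xFAD transgenes was examined in the hippocampus of 9-month-old mice that carried the Dp16 duplication. The members were 8 of the 16 libraries of the series: 4 labelled 5xFAD-Dp16 and 4 labelled Dp16, taken by genotype label, with 2 females and 2 males in each group. 5xFAD-Dp16 mice carried both the 5xFAD transgenes and the Dp16 duplication, and Dp16 mice carried the duplication without the transgenes, so that the duplication was common to both groups. The remaining 8 libraries, 4 from 5xFAD mice and 4 from wild-type (WT) C57BL/6J mice without the duplication, were used to ask whether the transgenes acted differently on the Dp16 background. Polyadenylated RNA was sequenced from each mouse, and the deposited tables held read counts and RPKM for 55385 genes. The labels give no strain background for the 3 mutant groups, and nothing on cell sorting, so every value is from bulk tissue.

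5xFAD mice express human genes with familial Alzheimer mutations, among them the amyloid precursor gene APP, from transgenes driven by Thy1 promoter sequence, which is active mainly in neurons. They deposit amyloid early, and microglia and astrocytes gather around the plaques. Dp16 mice carry an extra copy of the chromosome 16 segment from Lipi to Zbtb21, which holds mouse App, the interferon receptor genes and many other orthologs of genes on the chromosome that is trisomic in Down syndrome. Microglia near plaques are known to lower some surveillance genes and to raise phagocytic, lysosomal and lipid-handling genes through the receptor Trem2, while interferons raise a further set of antiviral and antigen-presenting genes.

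The labels were first set against the genes that the transgenes touch. Thy1, which encodes a neuronal surface glycoprotein, was at 2416, 2420.0, 2679 and 2585 CPM in the 5xFAD-Dp16 libraries, against 934, 872, 906 and 841 CPM in the Dp16 libraries. Every library labelled 5xFAD-Dp16 was thus far above every library labelled Dp16, and the fold was 2.84 (log2 fold change 1.51 ± 0.16 SE, adjusted p = 1.96e-05). Mouse App, the amyloid precursor gene of the duplicated segment, was at 2974, 3049, 2971 and 2791 CPM in 5xFAD-Dp16 mice and at 3275, 3213, 3179 and 3063 CPM in Dp16 mice. The App difference of -0.11 ± 0.08 did not pass the test (adjusted p = 0.67), although the groups did not overlap. How reads from the human transgenes were assigned is not given in the sources used here.

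Here and below, CPM values are counts scaled to a common library size and adjusted with the trimmed mean of M values (TMM), a gene is called when edgeR's quasi-likelihood test gives a Benjamini-Hochberg adjusted p under 0.05 over the 17132 genes tested, and log2 fold changes are 5xFAD-Dp16 over Dp16 with their standard error. Library totals were 21392403 to 22997103 counts in 5xFAD-Dp16 mice and 19823038 to 25308693 counts in Dp16 mice. Markers of thalamus, a neighbouring region, were high in 1 library of each group, the female 5xFAD-Dp16 1 and the male Dp16 14, which are set apart wherever they bear on a result. Mitochondrial transcripts made up 6.11 ± 0.496% of counts in 5xFAD-Dp16 mice and 5.56 ± 0.493% in Dp16 mice, and this difference did not pass a two-sided exact permutation test (p = 0.2, the smallest possible with 4 against 4 being 0.0286).

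In 5xFAD-Dp16 hippocampus, 512 genes were called higher (2.99% of those tested) and 6 were called lower (0.035%), 518 in all (3.02%). The rises were large: 322 of the 512 were at least 2-fold and 90 were at least 4-fold, with a median log2 fold change of 1.17, against a median of -0.00729 over all genes tested. In 503 of the 512, every 5xFAD-Dp16 library lay above every Dp16 library, which was the case for 6.56% of all genes tested, and the opposite separation for 3.44%. Of the 518 calls, 350 held when any 1 of the 8 libraries was left out. Without 5xFAD-Dp16 1 and Dp16 14 together there were 351 calls, 332 of them among the 518.

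**Figure D1:**
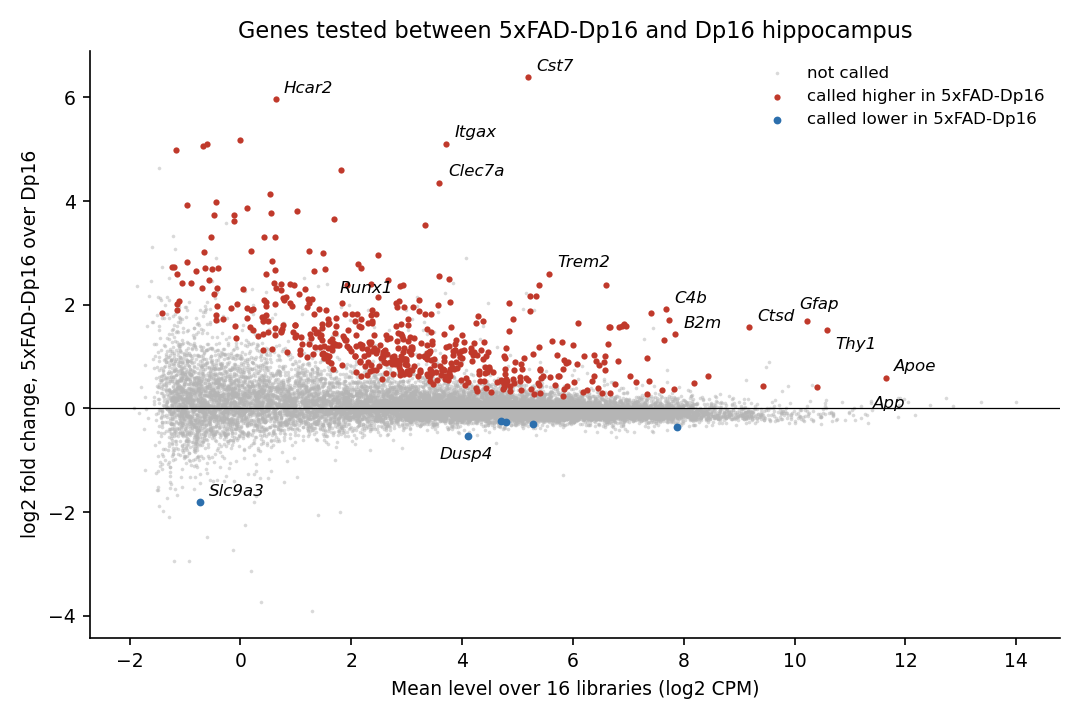
Each point is 1 of the 17132 genes tested, with its mean level over the 16 libraries on the x axis (log2 CPM) and its log2 fold change, 5xFAD-Dp16 over Dp16, on the y axis; red points were called higher, blue points lower and grey points not called. The called rises reach 6.39 for Cst7 while the called falls, apart from Slc9a3 at -1.81, lie between -0.53 and -0.24.

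The largest rises were in genes of microglia gathered at plaques. Cst7, which encodes the cysteine protease inhibitor cystatin F, was at 68.2, 49.0, 56.3 and 59.6 CPM in 5xFAD-Dp16 libraries, against 0.329, 0.160, 2.09 and 0.254 CPM in Dp16 libraries (log2 fold change 6.39 ± 0.50, edgeR adjusted p = 5.39e-06). Itgax, the integrin chain CD11c, was at 28.2, 14.8, 17.5 and 19.2 CPM in 5xFAD-Dp16 libraries and at 0.246, 0.641, 1.02 and 0.423 CPM in Dp16 libraries (log2 fold change 5.11 ± 0.37). Clec7a, the beta-glucan receptor Dectin-1, was at 22.8, 16.9, 15.6 and 19.6 CPM in 5xFAD-Dp16 libraries and at 0.246, 0.374, 2.71 and 0.508 CPM in Dp16 libraries (log2 fold change 4.35 ± 0.48). All 3 genes were near the floor of detection in Dp16 mice, and among those mice Dp16 12 stood highest for each. Without Dp16 12 the log2 fold change was 7.71 for Cst7, 5.43 for Itgax and 5.53 for Clec7a. Hcar2, a receptor for hydroxybutyrate and niacin, had 222 counts over the 4 5xFAD-Dp16 libraries and 3 counts over the 4 Dp16 libraries, a ratio of 76.2 per total count with an exact 95% interval of 25.7 to 372 that covers counting error only.

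Leaving aside predicted symbols and genes whose mean level was under 0 on the log2 CPM scale, the others of the 12 largest rises were the chemokines Ccl3 (log2 fold change 4.60) and Ccl6 (3.54), the aspartic protease Ctse (4.14), the allergin receptor Milr1 (3.86), the Trem family member Treml2 (3.81), the transglutaminase Tgm1 (3.78), the SLAM receptor Ly9 (3.65) and the checkpoint receptor Pdcd1 (3.31). Every 5xFAD-Dp16 library exceeded every Dp16 library in each of them, because genes without that separation had been left aside as well. The smallest p of all belonged to Mpeg1, a pore-forming protein of macrophage vacuoles that was singled out after its values were seen. Mpeg1 was at 177, 138, 134 and 157 CPM in 5xFAD-Dp16 libraries and at 26.3, 31.4, 31.9 and 26.3 CPM in Dp16 libraries (log2 fold change 2.39 ± 0.11, edgeR adjusted p = 9.49e-09).

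Across the list of plaque-associated microglial genes, 28 of 36 were called higher, none was called lower and all 36 estimates were positive, with a median log2 fold change of 1.62. For this list and those below, the share called higher over all genes tested was 2.99%. The list score, its mean log2(CPM + 0.5) minus the mean of the Dp16 libraries, ranged from 1.52 to 1.92 in 5xFAD-Dp16 mice, highest in the thalamus-rich 5xFAD-Dp16 1, and from -0.0898 to 0.22 in Dp16 mice, highest in Dp16 12. Homeostatic microglial genes were higher as well, with 15 of 18 called and a median of 0.971. Csf1r, the receptor for the microglial survival factors CSF1 and IL-34, was at 233, 207, 217 and 216 CPM in 5xFAD-Dp16 libraries and at 109, 127, 121 and 92.6 CPM in Dp16 libraries (log2 fold change 0.97 ± 0.12). The surveillance genes P2ry12, an ADP receptor, and Tmem119, looked up after the values were seen, also rose, by 0.75 ± 0.13 and 0.57 ± 0.12 on the log2 scale (edgeR adjusted p = 0.00195 and 0.00743). In bulk tissue, more cells of a type and more RNA per cell cannot be told apart, and this holds for every cell type named here.

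**Figure D2:**
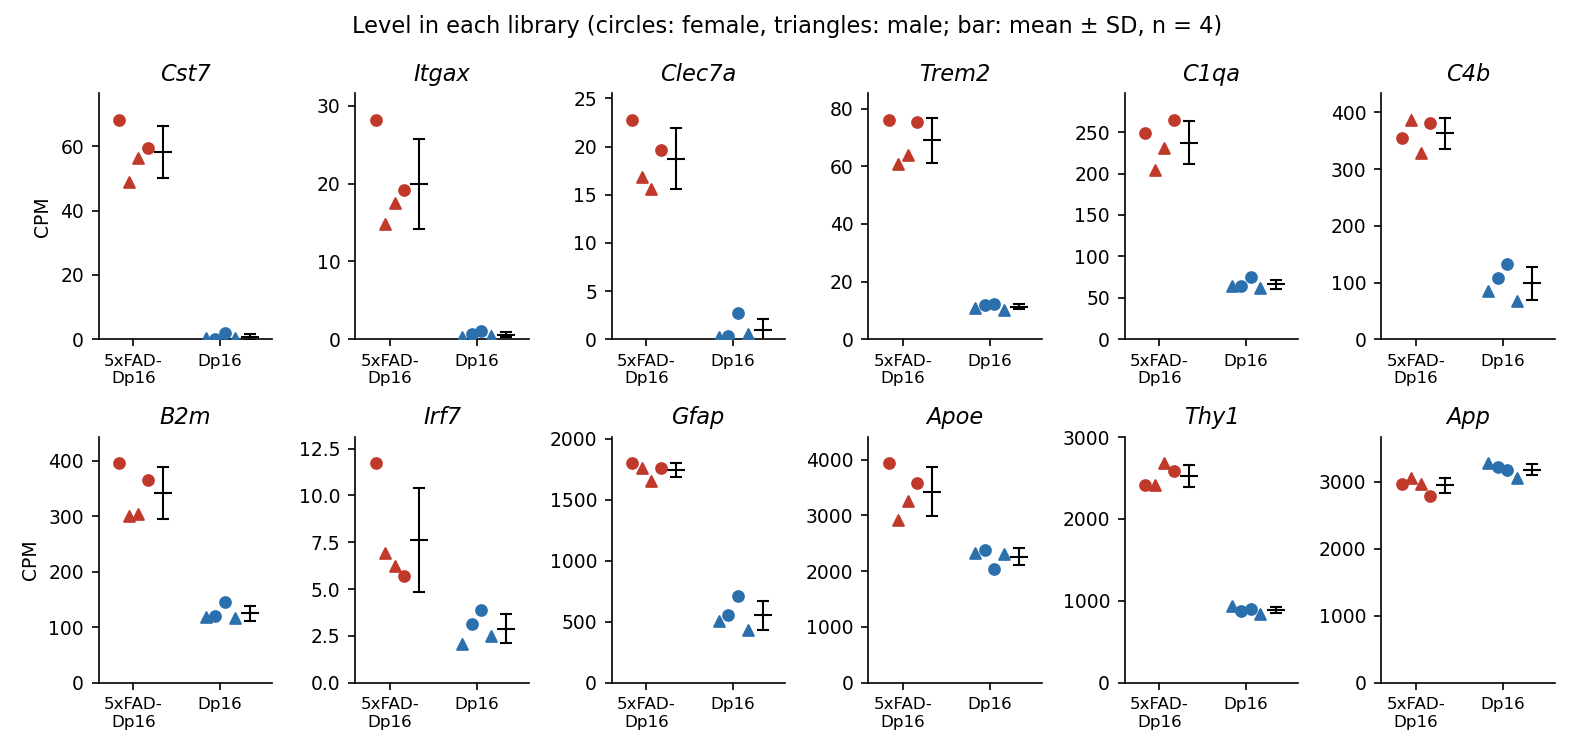
Each panel shows the level of 1 gene in CPM on a linear axis that starts at 0, with the 4 5xFAD-Dp16 libraries in red on the left and the 4 Dp16 libraries in blue on the right, circles for females, triangles for males and a bar for the mean ± SD. The groups do not overlap in any of the 12 panels, and App, at 2946 CPM in 5xFAD-Dp16 and 3182 CPM in Dp16 mice, is the panel in which Dp16 is higher.

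Trem2, the lipid-sensing receptor of microglia, was at 76.1, 60.8, 63.8 and 75.4 CPM in 5xFAD-Dp16 libraries and at 11.01, 11.9, 12.4 and 10.2 CPM in Dp16 libraries (log2 fold change 2.60 ± 0.16, edgeR adjusted p = 3.03e-07). Its signalling adaptor Tyrobp rose by 2.16 ± 0.18, the phosphatase Inpp5d, which limits signalling downstream of the adaptor, by 1.28 ± 0.17, and the myeloid transcription factor Spi1 by 1.29 ± 0.16 on the log2 scale. In the Trem2 signalling list 12 of 14 genes were called higher, with a median of 1.09, and 8 of 14 without 5xFAD-Dp16 1 and Dp16 14.

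Complement genes, whose products tag material for uptake by microglia, rose in 11 of 17 tested (median log2 fold change 1.25). C1qa, a chain of the initiating C1q complex, was at 249, 205, 230.5 and 265 CPM in 5xFAD-Dp16 libraries and at 64.4, 64.6, 74.6 and 61.9 CPM in Dp16 libraries (log2 fold change 1.83 ± 0.12). C1qb and C1qc rose by 1.59 ± 0.11 and 1.62 ± 0.11. C4b was at 355, 387, 328 and 381 CPM in 5xFAD-Dp16 libraries and at 85.2, 109, 132 and 66.8 CPM in Dp16 libraries, a 3.78-fold rise (edgeR adjusted p = 9.32e-07). Itgb2, the common beta chain of the complement receptors, rose by 1.78 ± 0.12. The complement count was 7 of 17 when Dp16 5, Dp16 12, 5xFAD-Dp16 8 or 5xFAD-Dp16 9 was left out. C4b has a near-identical neighbour, C4a, and how reads shared by copies were counted is not given, which also applies to the class I, guanylate-binding protein and Mx genes below.

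Receptors through which myeloid cells sense antibodies and microbial products were also among the calls. Fc receptor genes were called higher in 6 of 8 (median 1.47), among them Fcgr2b, the inhibitory receptor for IgG, by 2.50 ± 0.23 and the common signalling chain Fcer1g by 1.69 ± 0.16. In the list of Toll-like receptors and accessory proteins 9 of 15 genes were higher (median 1.36). They included the accessory proteins Ly86 (2.04 ± 0.18) and Cd14 (1.95 ± 0.17) and the receptors Tlr2 (2.41 ± 0.25) and Tlr13 (1.66 ± 0.21). Chemokines and their receptors were higher in 8 of 17 tested (median 1.52). The fractalkine receptor Cx3cr1, a microglial gene, rose by 1.03 ± 0.14, and the transmembrane chemokine Cxcl16 by 1.72 ± 0.25. The inflammasome and cytokine list held 19 genes, but members such as Il1b, Il6 and Tnf were below the low-count filter and were not tested. Of the 12 tested, 4 were called: Tgfb1 (1.17 ± 0.16), the adaptor Pycard (1.16 ± 0.22), the sensor Nlrp3 (2.40 ± 0.46) and Casp8 (0.87 ± 0.19). The Casp8 call was lost without Dp16 3 or Dp16 5 and without the pair of thalamus-rich libraries (adjusted p up to 0.0651 over the alternatives).

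Transcripts of antigen presentation genes were called higher in both classes. For class I, 12 of 19 genes were called higher and all 19 estimates were positive (median log2 fold change 1.13). B2m, the light chain of every class I molecule, was at 395, 301, 303 and 366 CPM in 5xFAD-Dp16 libraries and at 118, 119.9, 146 and 116 CPM in Dp16 libraries (log2 fold change 1.44 ± 0.09, edgeR adjusted p = 2.3e-07). The heavy chains H2-D1 and H2-K1 rose by 1.59 ± 0.13 and 1.23 ± 0.12, and Nlrc5, the transactivator of class I genes, by 2.04 ± 0.21. For class II, the median was 1.98 and 4 of 9 genes tested were called (H2-Ob, H2-DMb1, H2-DMb2 and H2-Oa). In all 9 every 5xFAD-Dp16 library lay above every Dp16 library, which was the case for 6.56% of all genes tested. Low genes such as H2-DMb2 can pass the low-count filter through the group where they are high, so this separation is no further support. Cd74, the class II invariant chain, looked up after its values were seen, was at 43.6, 28.9, 31.4 and 63.4 CPM in 5xFAD-Dp16 libraries and at 8.83, 10.7, 5.07 and 9.74 CPM in Dp16 libraries (log2 fold change 2.22 ± 0.57, edgeR adjusted p = 0.0625). The class II count was 2 of 9 without Dp16 5, 5xFAD-Dp16 1 or 5xFAD-Dp16 9, but 6 with the 8 libraries alone, 7 with DESeq2, 7 with limma and 8 without the low-count filter. H2-DMb2 lost its call under 7 of 16 alternatives and H2-Oa under 7 of 17.

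Interferon-stimulated genes were called higher in 35 of 49, with all 49 estimates positive and a median log2 fold change of 0.983. Irf8, a transcription factor of the interferon response and of microglial identity, was at 24.5, 17.8, 19.4 and 18.4 CPM in 5xFAD-Dp16 libraries and at 5.01, 4.92, 5.12 and 4.23 CPM in Dp16 libraries (log2 fold change 2.05 ± 0.16). Zbp1, a sensor of Z-form nucleic acid, was low but separated, at 1.14, 1.11, 0.820 and 1.05 CPM in 5xFAD-Dp16 libraries and at 0.123, 0.0534, 0.0890 and 0.0423 CPM in Dp16 libraries (log2 fold change 3.62 ± 0.40). Trim30a, an interferon-induced regulator of inflammatory signalling, rose by 1.80 ± 0.22, and Parp14, an ADP-ribosyltransferase, by 1.17 ± 0.15. The score of the list ranged from 0.705 to 1.13 in 5xFAD-Dp16 mice, again highest in 5xFAD-Dp16 1, and from -0.106 to 0.231 in Dp16 mice, again highest in Dp16 12.

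The interferon-induced GTPases, which attack the membranes of intracellular pathogens, were called higher in 10 of 15 tested (median 1.15). Irgm1 was at 18.5, 19.6, 17.2 and 18.1 CPM in 5xFAD-Dp16 libraries and at 6.66, 8.61, 9.57 and 7.62 CPM in Dp16 libraries (log2 fold change 1.19 ± 0.12). Gbp2 rose by 1.15 ± 0.18, Igtp by 1.10 ± 0.19 and Iigp1 by 1.31 ± 0.25. The count of called GTPases moved with single libraries: it was 6 without Dp16 5 or 5xFAD-Dp16 8, 5 without 5xFAD-Dp16 1, and 3 without both 5xFAD-Dp16 1 and Dp16 14, where Iigp1 lost its call (adjusted p = 0.0827).

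Interferon-stimulated genes are read from promoter elements that bind interferon regulatory factors, and the motif was searched in the promoter windows of RefSeq on GRCm38.p6 (250 bases before to 50 after each start) to show the sequences behind these lists. The core GAAANNGAA, where N is any base, was searched on both strands. It was found in 30 of 47 genes of both interferon lists that had a window (63.8%), against 1068 of 12425 genes tested that had one (8.60%) and 3 of 25 plaque-associated microglial genes (12%). A second motif, the gamma-activated site TTCNNNGAA, which shares its last letters with the first and may overlap it, was found in 15 of the 47 genes (31.9%) and in 1009 of the 12425 (8.12%). The windows of the 4 called interferon genes with the smallest p that hold the core are printed 5′ to 3′ on the strand of the gene, with the core or its reverse complement in capitals.
Irgm1, chr11:48871371-48871670, minus strand: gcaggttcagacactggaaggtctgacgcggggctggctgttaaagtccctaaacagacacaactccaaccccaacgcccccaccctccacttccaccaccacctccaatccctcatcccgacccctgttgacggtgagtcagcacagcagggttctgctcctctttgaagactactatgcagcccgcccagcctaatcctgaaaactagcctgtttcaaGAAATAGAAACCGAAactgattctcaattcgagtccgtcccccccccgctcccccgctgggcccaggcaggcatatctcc
Trim30a, chr7:104446076-104446375, minus strand: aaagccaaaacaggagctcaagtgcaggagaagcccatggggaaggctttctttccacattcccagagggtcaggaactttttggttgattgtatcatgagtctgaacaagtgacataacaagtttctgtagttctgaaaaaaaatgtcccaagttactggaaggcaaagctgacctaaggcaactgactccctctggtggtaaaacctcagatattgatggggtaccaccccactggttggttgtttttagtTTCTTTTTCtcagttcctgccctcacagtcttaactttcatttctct
Trim25, chr11:88999153-88999452, plus strand: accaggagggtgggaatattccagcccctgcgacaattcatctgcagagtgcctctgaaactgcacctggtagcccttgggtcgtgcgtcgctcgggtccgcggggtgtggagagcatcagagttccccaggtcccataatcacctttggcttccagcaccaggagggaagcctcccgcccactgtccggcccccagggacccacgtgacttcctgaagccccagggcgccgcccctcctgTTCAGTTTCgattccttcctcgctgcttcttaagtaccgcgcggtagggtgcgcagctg
Ifit3b, chr19:34607707-34608006, plus strand: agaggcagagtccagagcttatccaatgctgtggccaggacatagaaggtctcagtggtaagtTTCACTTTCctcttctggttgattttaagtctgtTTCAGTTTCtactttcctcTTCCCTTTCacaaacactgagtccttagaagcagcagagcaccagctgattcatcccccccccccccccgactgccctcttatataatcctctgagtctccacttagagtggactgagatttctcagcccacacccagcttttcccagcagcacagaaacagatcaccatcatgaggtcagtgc
Irgm1 holds 2 overlapping cores, and Ifit3b holds 3 separate ones. Trim25, a ubiquitin ligase of RNA sensing, rose by 0.85 ± 0.11, and Ifit3b, an antiviral RNA-binding protein family member, by 1.18 ± 0.16 on the log2 scale. A match is a stretch of letters and not a measured binding site.

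Reactive astrocyte genes were called higher in 15 of 31 tested (median log2 fold change 1.07). Gfap, the intermediate filament of reactive astrocytes, was at 1798, 1756, 1657 and 1757 CPM in 5xFAD-Dp16 libraries and at 506, 553, 713 and 432 CPM in Dp16 libraries (log2 fold change 1.68 ± 0.14, edgeR adjusted p = 2.5e-06). Serpina3n, a secreted protease inhibitor, averaged 160.5 ± 9.26 CPM in 5xFAD-Dp16 mice and 55.1 ± 11.3 CPM in Dp16 mice (log2 fold change 1.57 ± 0.17). Some called genes of this list are also expressed by microglia, such as Cd14 and the class I gene H2-T23 (1.13 ± 0.12). Of the genes of astrocyte transport and coupling 0 of 17 were called, with a median of 0.129. Aqp4, the water channel of astrocyte endfeet, was at 338, 240.5, 199 and 205 CPM in 5xFAD-Dp16 libraries and at 143, 162, 200.5 and 224 CPM in Dp16 libraries, which overlapped (0.42 ± 0.19, edgeR adjusted p = 0.411). The glutamate transporter Slc1a3 was likewise not called (0.33 ± 0.15).

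Lysosomal genes rose in 14 of 33 tested, with a median of 0.311. Ctss, a protease of microglial lysosomes, was at 377, 277, 279 and 331 CPM in 5xFAD-Dp16 libraries and at 95.6, 97.2, 86.6 and 102 CPM in Dp16 libraries (log2 fold change 1.71 ± 0.13). The glycosidases Gusb and Man2b1 rose by 1.17 ± 0.14 and 1.01 ± 0.11, and Grn, the lysosomal protein progranulin, by 0.90 ± 0.10. Apoe, an apolipoprotein that carries cholesterol between brain cells, was at 3932, 2909, 3256 and 3583 CPM in 5xFAD-Dp16 libraries and at 2317, 2381, 2031 and 2301 CPM in Dp16 libraries, a 1.51-fold rise (log2 fold change 0.59 ± 0.12, edgeR adjusted p = 0.00792). The Apoe call was lost without 5xFAD-Dp16 1 and Dp16 14 (adjusted p = 0.0547). In the list of Apoe and lipid efflux genes 6 of 20 were called, including the cholesterol exporter Abca1 (0.63 ± 0.12), the lysosomal sterol carrier Npc2 (0.84 ± 0.12) and the oxysterol-forming enzyme Ch25h (2.41 ± 0.55). Ch25h lost its call under 6 of 17 alternatives, 5 of them fits without 1 library (adjusted p up to 0.186). That count was 2 without the pair of thalamus-rich libraries, 3 without Dp16 5, Dp16 12, Dp16 14 or 5xFAD-Dp16 8, and 4 without 5xFAD-Dp16 1, 9 or 11. Cholesterol biosynthesis had 1 of 23 genes called, Stard4, a sterol transport protein (0.53 ± 0.09), with a median of 0.130. That share was near the 2.99% called higher over all genes tested.

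In the antioxidant list, which also held oxidase subunits, 7 of 24 were called, and they included subunits of the phagocyte NADPH oxidase, which makes superoxide and is not an antioxidant enzyme: Cybb (2.79 ± 0.29), Cyba (1.21 ± 0.15) and Ncf1 (1.24 ± 0.18). Cybb was at 10.01, 9.23, 5.65 and 11.2 CPM in 5xFAD-Dp16 libraries and at 1.19, 1.02, 1.42 and 1.44 CPM in Dp16 libraries. Of 15 iron genes 3 were called: the phagosomal metal transporter Slc11a1 (2.35 ± 0.20), the haem oxygenase Hmox1 (0.75 ± 0.14) and the ferritin light chain Ftl1 (0.49 ± 0.09), the last of which lost its call without 5xFAD-Dp16 1 and Dp16 14 (adjusted p = 0.0513). In glycolysis 3 of 22 genes were called, the hexokinases Hk3 (1.32 ± 0.25) and Hk2 (0.73 ± 0.18) and the lactate exporter Slc16a3 (1.04 ± 0.21), but none of the 22 without those same libraries, and 2 without any 1 library other than 5xFAD-Dp16 11. Hk2 lost its call under 9 of 17 alternatives, and the median of the list was -0.0756.

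Genes of amyloid production and breakdown did not pass the test. None of the 18 genes of App, its homologs, the secretases and amyloid proteases was called, and their median was 0.0200. The alpha-secretase Adam17 was at 0.40 ± 0.12 (edgeR adjusted p = 0.105) and the amyloid-degrading protease Mme, neprilysin, at -0.80 ± 0.27 (adjusted p = 0.196), and neither had overlapping groups. Of 35 tested orthologs of Alzheimer risk genes 11 were called higher (median 0.297). Trem2, Grn, Spi1 and Inpp5d had the smallest p among them, and all 4 were described above.

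**Figure D3:**
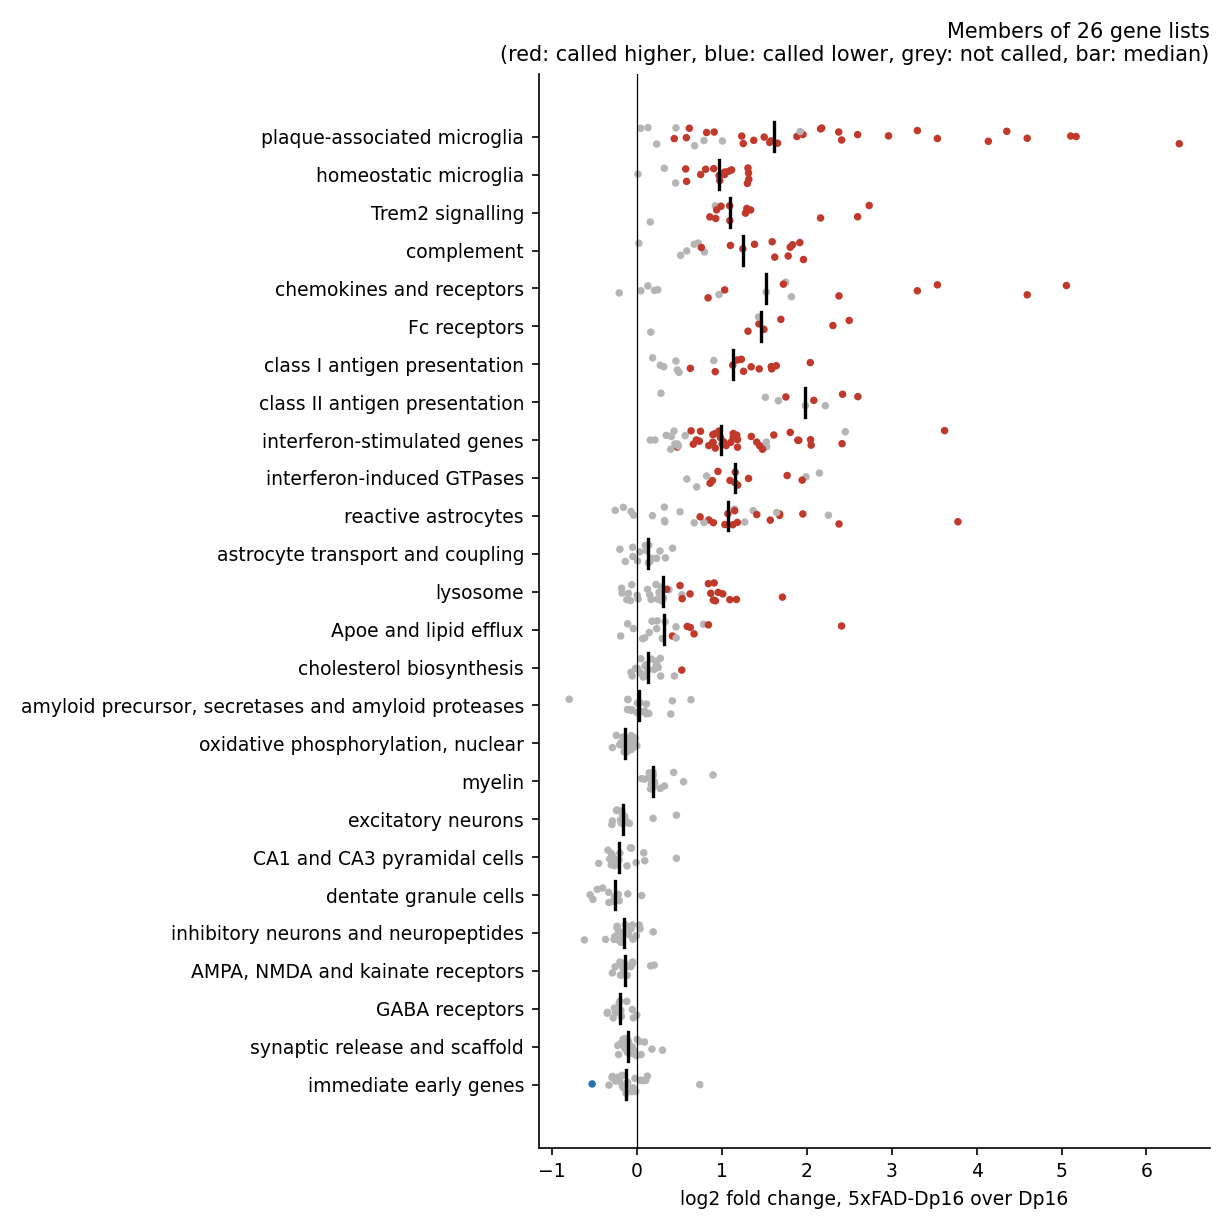
Each row is a gene list and each point a tested member, placed by its log2 fold change, 5xFAD-Dp16 over Dp16; red members were called higher, blue lower, grey not called, and the black bar is the median. Medians lie from 0.971 to 1.98 in the first 11 rows, which hold the microglial, complement, receptor, antigen presentation, interferon and reactive astrocyte lists, and at -0.265 to 0.314 in the other 15.

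Neuronal gene lists had negative medians and no calls. None of 16 excitatory neuron genes (median -0.170), 15 dentate granule cell genes (-0.265), 17 CA1 and CA3 pyramidal cell genes (-0.213) or 21 inhibitory neuron and neuropeptide genes (-0.153) was called. The same was found for 15 AMPA, NMDA and kainate receptor genes (-0.144), 30 genes of synaptic release and scaffold (-0.111) and 14 GABA receptor genes, of which none had a positive estimate (-0.206). Snap25, a vesicle fusion protein of the nerve terminal, was at 2028, 2021, 2220.0 and 2060.0 CPM in 5xFAD-Dp16 libraries and at 2447, 2225, 2489 and 2517 CPM in Dp16 libraries without overlap (-0.22 ± 0.10, edgeR adjusted p = 0.41). The thalamus-rich library of each group was the lowest of its group in the dentate score and in the excitatory score. Without 5xFAD-Dp16 1 the medians were closer to 0, at -0.0644 for excitatory, -0.0592 for CA1 and CA3, -0.155 for dentate and -0.0715 for AMPA, NMDA and kainate receptor genes, and without Dp16 14 the excitatory median was -0.297. The excitatory median was -0.112 without Dp16 12. The synaptic median was -0.057 without Dp16 3 and -0.0665 without Dp16 12, and the inhibitory median -0.0912 without 5xFAD-Dp16 8 and -0.0783 without 5xFAD-Dp16 9. The medians differed between the sexes: the excitatory median was -0.471 in females and 0.148 in males, and the CA1 and CA3 median -0.509 in females and 0.161 in males. The thalamus-rich libraries are a female of 5xFAD-Dp16 and a male of Dp16, so sex and regional content cannot be told apart here. GABA receptor genes kept negative medians in females (-0.232) and in males (-0.175).

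Nuclear genes of oxidative phosphorylation gave 0 calls of 32, yet all 32 estimates were negative (median -0.136). In 12 of them every 5xFAD-Dp16 library was below every Dp16 library, a separation seen in 3.44% of all genes tested. The list score ran from -0.155 to -0.0816 in 5xFAD-Dp16 mice. It was 0.117 in the thalamus-rich Dp16 14 and -0.0539 to -0.0276 in the other Dp16 mice. Ndufs3, a complex I subunit, was at 53.9, 57.0, 56.2 and 57.7 CPM in 5xFAD-Dp16 libraries and at 65.4, 66.0, 63.4 and 71.5 CPM in Dp16 libraries (-0.24 ± 0.07, edgeR adjusted p = 0.0814). Cytosolic ribosomal protein genes, also with 0 calls, leaned the other way, with 77 of 80 estimates positive and a median of 0.129. Myelin genes had 16 of 16 positive estimates and no call (median 0.191), with Trf, the iron carrier transferrin, at 0.55 ± 0.20 (edgeR adjusted p = 0.263). The myelin median was 0.0794 without Dp16 12, 0.353 without Dp16 14, 0.432 in females and -0.0454 in males. Sex and regional content cannot be told apart in these values either. No heat shock gene of 19 was called, and 1 of 26 genes of the unfolded protein and integrated stress response was, Edem1, which directs misfolded proteins to degradation (0.53 ± 0.08). The share of 1 in 26 was near the 2.99% called higher over all genes tested.

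Of the 6 genes called lower, Dusp4, a phosphatase that is induced by and turns off MAP kinase signalling, had the largest fall among genes above 1 CPM on average. Dusp4 was at 14.3, 16.8, 15.2 and 13.5 CPM in 5xFAD-Dp16 libraries and at 23.4, 22.8, 21.9 and 18.2 CPM in Dp16 libraries (log2 fold change -0.53 ± 0.13, edgeR adjusted p = 0.0331). It was the only call among 25 immediate early genes, whose median was -0.129, and -0.207 without Dp16 14. The others were Elmod1 (-0.36 ± 0.09), which acts on small GTPases of the ARF family, the sorting nexin Snx25 (-0.30 ± 0.07), the splicing protein Usp39 (-0.27 ± 0.07), the RNA helicase Ddx49 (-0.24 ± 0.06) and Slc9a3 (-1.81 ± 0.46), a sodium-proton exchanger below the level set for naming genes and named after its values were seen. All 6 had groups that did not overlap. Over 17 alternatives Dusp4 lost its call in 7, Elmod1 in 10, Snx25 in 12, and Usp39 and Ddx49 in 13 each. The count of lower calls was 0 without Dp16 5 or Dp16 12, 1 without 5xFAD-Dp16 1, 2 without Dp16 3 or 5xFAD-Dp16 9, and 2 without the pair of thalamus-rich libraries, while DESeq2 called 47.

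Within the triplicated segment, taken from Lipi to Zbtb21 (chr16:75540514-97962622, GRCm38), 4 of 105 tested genes were called higher and none lower, with a median of 0.00258. That share of 3.81% was close to the 2.99% called higher over all genes tested. Runx1, a transcription factor of blood and myeloid cells, was at 6.86, 6.35, 7.96 and 6.87 CPM in 5xFAD-Dp16 libraries and at 1.93, 1.66, 2.94 and 1.40 CPM in Dp16 libraries (log2 fold change 1.83 ± 0.20). Samsn1, an adaptor of immune cells, rose by 2.37 ± 0.25. The antiviral GTPases Mx1 and Mx2 were low, at 1.16 ± 0.552 and 1.66 ± 0.544 CPM in 5xFAD-Dp16 mice and 0.204 ± 0.0804 and 0.431 ± 0.207 CPM in Dp16 mice (SD, n = 4 each), and rose by 2.48 ± 0.50 and 1.94 ± 0.50. The Mx2 call was lost without any 1 of the 8 libraries (adjusted p up to 0.177 over the alternatives). Of the 4 interferon receptor genes of the segment none was called. Ifnar2, a chain of the type I interferon receptor, was at 36.1, 32.5, 33.6 and 32.6 CPM in 5xFAD-Dp16 libraries and at 26.6, 29.0, 23.5 and 24.5 CPM in Dp16 libraries (0.38 ± 0.10, edgeR adjusted p = 0.063). Il10rb, shared by the receptors for IL-10 and interferon lambda, was at 0.53 ± 0.17 (adjusted p = 0.144). Ifnar2 was called under 4 alternatives, among them DESeq2.

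Markers of cells and regions outside the hippocampal parenchyma moved with single libraries. The thalamus score was 1.22 in 5xFAD-Dp16 1 and 1.71 in Dp16 14 and lay between -0.607 and -0.362 in the other 6. The choroid plexus score was 2.92 in 5xFAD-Dp16 8 and 1.5 in Dp16 5, and its list had a median log2 fold change of 1.46 with 0 of 16 genes called; leaving out single libraries moved that median between -0.609 and 2.33. 5xFAD-Dp16 1 was also the highest in the scores of meningeal fibroblasts (1.39) and mural cells (0.914), whose lists had no calls among 13 genes each. Endothelial genes (0 of 15), ependymal genes (0 of 10), oligodendrocyte precursor genes (0 of 14), newborn neuron genes (0 of 8), p53 targets (0 of 13), clustered protocadherins (0 of 55), blood cell genes (0 of 5) and perivascular macrophage genes (0 of 9) had no calls, nor had striatal (0 of 12), cortical (0 of 11) or mitochondrially encoded genes (0 of 13). Among genes of infiltrating and dividing cells, Cd3e of 7 lymphocyte genes tested, Csf3r of 3 neutrophil genes and Top2a of 15 cell division genes were called. Those lists held 19, 9 and 18 genes, and members below the low-count filter were not tested. Top2a lost its call without 5xFAD-Dp16 1 and Dp16 14 (adjusted p = 0.0822). Csf3r, which microglia also express, averaged 18.0 ± 5.50 CPM in 5xFAD-Dp16 mice and 4.41 ± 0.619 CPM in Dp16 mice. Cd3e, a T cell receptor chain, averaged 0.823 ± 0.287 CPM in 5xFAD-Dp16 mice and 0.140 ± 0.121 CPM in Dp16 mice and kept its call only when Dp16 14 was the library left out. With the thalamus score as a covariate 622 genes were called, 515 of them among the 518 calls. Of the 518, 425 held without the choroid-rich 5xFAD-Dp16 8 and 383 without the choroid-rich Dp16 5.

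**Figure D4:**
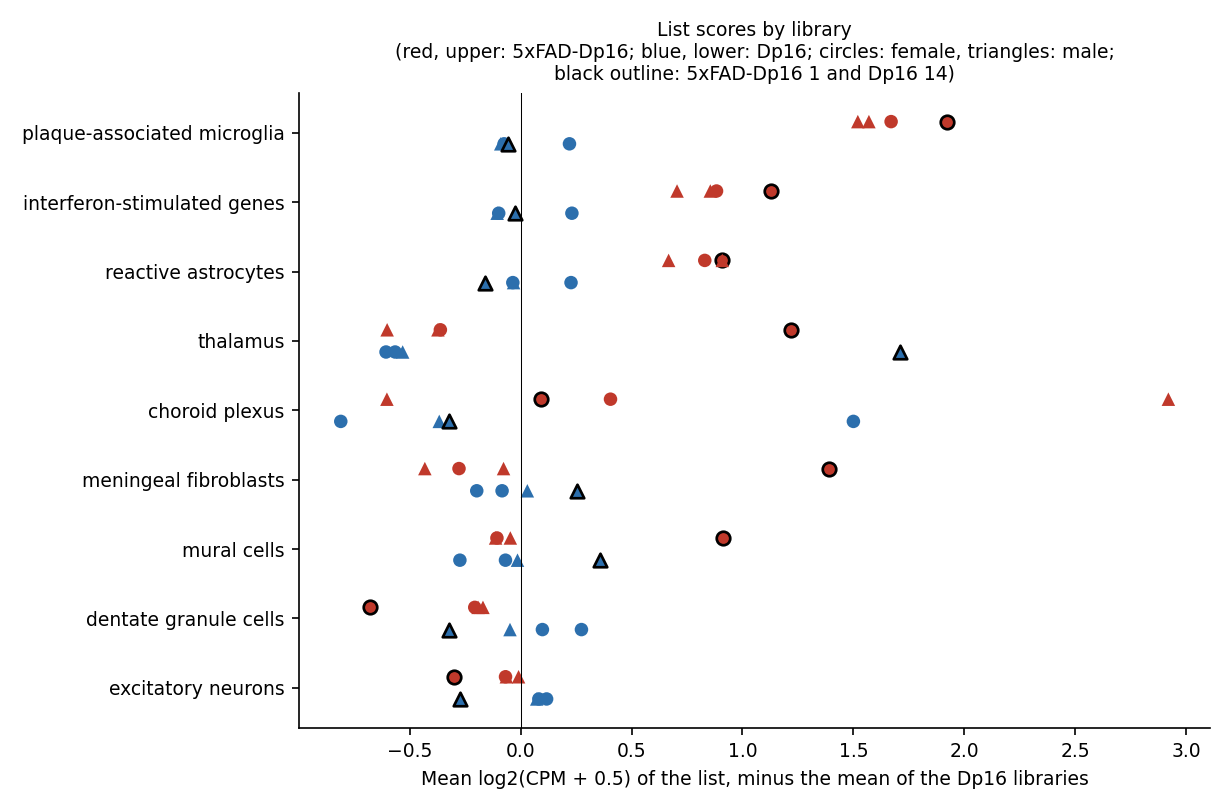
Each point is 1 library, placed by the mean log2(CPM + 0.5) of a list minus the mean of the Dp16 libraries, with 5xFAD-Dp16 in red on the upper line of each row and Dp16 in blue on the lower line, circles for females and triangles for males. Black outlines mark 5xFAD-Dp16 1 and Dp16 14, which lie at 1.22 and 1.71 in the thalamus row, whereas in the rows for plaque-associated microglia, interferon-stimulated genes and reactive astrocytes the red and blue points do not overlap.

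The last question was whether the transgenes had another effect on the Dp16 background than on the normal one. In 5xFAD against WT, a comparison that shares no library with that of 5xFAD-Dp16 against Dp16, 1244 genes were called (7.26%). Of the 518 genes called on the Dp16 background, 457 were called there too, in the same direction in all 457; they were 88.2% of the calls on the Dp16 background and 36.7% of those on the normal one. The difference between the effects was then tested for each gene as an interaction, and no gene passed (0%), with 1114 genes at an unadjusted p under 0.05, a smallest adjusted p of 0.718 by edgeR and 0 calls by DESeq2. The unequal counts of calls are thus no test of a difference. Thalamus markers were high in 6 of the 16 libraries, 3 of them among the 4 5xFAD libraries and 1 in each other group, so that regional content and the normal-background effect cannot be told apart.

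Interaction estimates, the effect on the Dp16 background minus that on the normal background, were negative for 31 of 36 plaque-associated microglial genes (median -0.396), against 8683 of 17132 genes tested (median -0.00486). Trem2 rose by 2.60 ± 0.16 on the Dp16 background and by 3.26 ± 0.17 on the normal background, and the difference of -0.66 ± 0.22 did not pass (edgeR adjusted p = 0.718). Cst7 rose by 6.39 on the Dp16 background and by 8.46 on the normal one (difference -2.08 ± 0.95). Dp16 12 held 47 of the 64 Cst7 counts of the Dp16 libraries, and without it the rise on the Dp16 background was 7.71. C1qb differed by -0.52 ± 0.15 and Gfap by -0.45 ± 0.20, also without passing. The estimates were near 0 for interferon-stimulated genes (median -0.0925, 32 of 49 negative) and for homeostatic microglial genes (median -0.0650, 10 of 18 negative). They were negative for 31 of 32 oxidative phosphorylation genes (median -0.250) and for all 80 ribosomal protein genes (median -0.224), and positive for 15 of 17 CA1 and CA3 genes (median 0.442). The median effect on oxidative phosphorylation genes was -0.136 on the Dp16 background and 0.140 on the normal background. Among 5xFAD libraries that score was 0.225 and 0.224 in the thalamus-rich 5xFAD 6 and 5xFAD 15. It was -0.111 in the thalamus-rich 5xFAD 13 and -0.0384 in 5xFAD 10. The CA1 and CA3 score was -0.563, -0.287, -0.408 and -1.08 in 5xFAD 6, 10, 13 and 15.

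The 335 genes called lower in 5xFAD against WT had a median log2 fold change of -0.409 in that comparison. On the Dp16 background their median was -0.115, 301 of the 335 had negative estimates and 2 were called lower. Because these genes were picked by their values in 5xFAD against WT, the smaller median is no test of a weaker effect. The 6 genes with the smallest unadjusted interaction p were Ddx49, Prim1, Aldh1a7, Chrd, Ryr3 and Zfp169. Ddx49 averaged 23.7 ± 1.39 CPM in 5xFAD-Dp16 mice and 27.9 ± 0.205 CPM in Dp16 mice, and 28.0 ± 0.219 CPM in 5xFAD mice and 24.7 ± 0.173 CPM in WT mice (difference -0.42 ± 0.09, unadjusted p = 0.000199 by edgeR). Ryr3, an intracellular calcium release channel, differed by 0.69 ± 0.17, and Prim1, a primase subunit, by -1.21 ± 0.27, neither passing after adjustment.

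**Figure D5:**
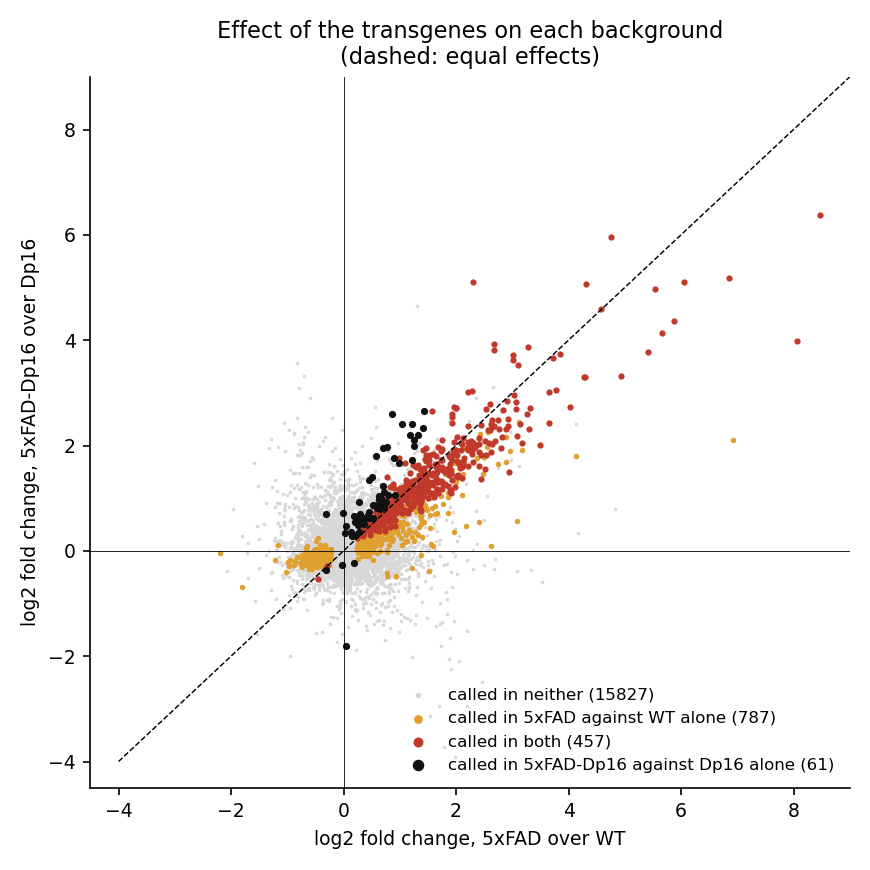
Each point is a gene, with its log2 fold change for 5xFAD over WT on the x axis and for 5xFAD-Dp16 over Dp16 on the y axis; red genes were called in both, orange and black genes in 1 of the comparisons, grey genes in neither, and the dashed line marks equal effects. The 457 red genes all lie in the quadrants of equal sign, and no gene passed the test of the difference.

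Females and males were compared in the same way. The difference between the effect in females and that in males passed for no gene (0%), with 918 genes at an unadjusted p under 0.05 and a smallest adjusted p of 0.581 by edgeR, while DESeq2 called 14. Median effects were 1.65 in females and 1.5 in males for plaque-associated microglia and 1.01 in females and 0.940 in males for interferon-stimulated genes. Camk2d, a calcium-dependent kinase, had the smallest p, with an effect of 1.16 in females and -0.48 in males (difference 1.64 ± 0.27, edgeR adjusted p = 0.581). Its level was highest in 5xFAD-Dp16 1 at 105 CPM and in Dp16 14 at 93.8 CPM, the thalamus-rich libraries of a female and a male. The thalamus list itself had median effects of 1.26 in females and -1.37 in males, so that sex and regional content cannot be told apart in this contrast.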

How the data were processed

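Hippocampal RNA from 9-month-old mice was extracted with TRIzol and made into polyadenylated RNA libraries, per the labels' protocols. Of software, HTSeq 0.6.1 and HISAT2 2.1.0 are listed, with SAMtools 1.5, FastQC 0.11.5 and bcl2fastq and the build GRCm38, per the submitters' processing notes; the strand setting and the handling of multi-mapped reads are not given in the sources used here. The authors deposited whole-number read counts per gene and RPKM values, which were the counts divided by the library total and by 1 length per gene. Library totals ranged from 19823038 to 25308693 counts in the 8 libraries compared.

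Counts of all 16 libraries were fitted together in R 4.3.3 with edgeR 4.0.16 (TMM factors, robust quasi-likelihood fit, a term for each group and one for sex). Genes were kept by filterByExpr with a minimum count of 10, which left 17132 of 55385. The comparison of 5xFAD-Dp16 with Dp16 and its interaction with the normal background were contrasts of that fit. The effects in females and in males, and their difference, came from a second fit. It had a mean for each combination of group and sex, each resting on 2 libraries. In each fit p-values were adjusted over all genes tested. These fits were tested on simulated data. Alternatives were DESeq2 1.42.0, limma 3.58.1 on log2(RPKM + 0.1) of the deposited RPKM, other scalings, no low-count filter, no sex term, the 8 libraries alone, a thalamus covariate, and fits without the thalamus-rich libraries or without each library in turn. The interaction without the 6 libraries rich in thalamus markers was added after seeing the data.

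The groups compared, the gene lists and the alternatives were chosen with earlier results of these data known. Genes were named by rule: the 12 largest called rises and falls that did not overlap, had a mean log2 CPM of at least 0 and had no predicted symbol; up to 4 called members of each list by p, or the 2 smallest p where none was called; a few fixed plaque and transgene genes; called genes of the duplicated segment; and the 6 smallest p of the interaction and of the sex difference. A few genes that this rule names are not reported here. Each library is 1 mouse in the labels. The edgeR p-values thus set each difference against the spread between mice within the groups fitted, estimated over all 16 libraries. Gene positions and the segment's limits were taken from a GRCm38 annotation, and promoter windows from RefSeq on GRCm38.p6.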

Additional observations from a re-analysis of the deposited data

Results flagged for a closer look

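Each gene or list score in each group of 4 libraries was searched for 1 library far from the other 3, and 34 of 432 groups of values held one, where chance gives about 1 in 20. Of these, 10 were in 5xFAD-Dp16 1, 8 in Dp16 12 and 7 in Dp16 14. None of these libraries was left out of the values reported.

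Dp16 12 stood above the other Dp16 mice in genes that were higher in 5xFAD-Dp16 mice. It had Cst7 at 2.09 CPM, Clec7a at 2.71 CPM, B2m at 145.8 CPM, H2-K1 at 45.7 CPM, Igtp at 4.32 CPM and Hmox1 at 6.05 CPM, and a plaque-associated microglia score of 0.22. Every 5xFAD-Dp16 library was still above it in each of these. Its Rps26 level, a ribosomal protein gene, was low at 128.2 CPM, against 135.3 to 136.7 CPM in the other 3.

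The thalamus-rich libraries accounted for most of the remaining values. In 5xFAD-Dp16 1, the thalamus score was 1.22, the mural cell score 0.914 and the dentate granule cell score -0.679. The same library had Vtn at 173.6 CPM, Slc13a3 at 65.8 CPM, Adarb1 at 266.5 CPM and Ntng1 at 67.6 CPM. Its scores were -0.115 for p53 targets, 0.278 for mitochondrially encoded proteins and 0.24 for the orthologs on the chromosomes outside the segment. In Dp16 14, the thalamus score was 1.71, the excitatory neuron score -0.272, the synaptic score -0.256 and the score of nuclear oxidative phosphorylation genes 0.117. Dp16 14 had Adarb1 at 331.6 CPM, Notch3 at 35.6 CPM and Grin1 at 633 CPM.

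Choroid plexus genes stood apart in 1 library of each group. Clic6 was at 100.3 CPM in 5xFAD-Dp16 8 and at 30.5 CPM in Dp16 5, and Kcnj13 at 19.97 CPM in 5xFAD-Dp16 8 and at 4.92 CPM in Dp16 5. 5xFAD-Dp16 11 had the highest Tgm1 (3.57 CPM), Plk5 (11.2 CPM) and Mx2 (2.47 CPM) of its group. The glycolysis score was 0.146 in 5xFAD-Dp16 9, and Pcdhb10 was at 4.93 CPM in Dp16 3.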

How the results depend on the processing

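The count of higher calls stayed within 1.5 times of 512 under every alternative except the fit without a low-count filter, which gave 830 higher and 60 lower calls, 890 in all, of which only 21 were among the genes the filter had removed. Leaving out each library gave 384 to 528 calls. The 6 lower calls were less stable: 3 with upper-quartile factors, 2 without the pair of thalamus-rich libraries, 2 with limma on log2(RPKM + 0.1), 18 with the thalamus score as a covariate, 47 with DESeq2, and 0 to 5 when each library was left out. The interaction gave 0 calls except for 290 without a low-count filter, 5 of them among the removed genes, and 15 without the 6 libraries rich in thalamus markers, a fit added after seeing the data that leaves 1 5xFAD library, assumed to vary like the other groups. The difference between the sexes gave 549 calls without a low-count filter, 14 with DESeq2, 1 with the 8 libraries alone, and 0 to 2 when each library was left out. The cause of these shifts was not tested.

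The sign of 6 named genes changed under some alternative, and none of the 6 was among the 518 calls. Over the fits that left out each library, the log2 fold change ranged from -0.01104 to 0.3381 for Vtn, -0.009717 to 0.6382 for Slc13a3, -0.01228 to 0.726 for F13a1, -0.07753 to 2.877 for Clic6, -0.3759 to 0.08975 for Adarb1 and -0.5322 to 0.09372 for Ntng1. Vtn, Slc13a3 and F13a1 turned without 5xFAD-Dp16 1, Clic6 without 5xFAD-Dp16 8, and Adarb1 and Ntng1 without Dp16 14. The largest shift of the median of all genes under any alternative was 0.0214 on the log2 scale. Genes under about 1 CPM, such as Cd3e and Mx1, rest on few counts per library. No paired analysis was possible because no replicate number is shared between the groups.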

Other observations

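Several receptor and sensor families were looked up whole after their values were seen, and are given as descriptions. Some of their members are also in the lists above, such as P2ry12 and Csf1r, so their calls are counted again here. Over all genes tested, 2.99% were called higher. In the PYHIN family of DNA sensors 5 of 8 tested genes were called higher and none lower by edgeR (median log2 fold change 2.22), with Ifi204 at 3.04 and Ifi209 at 3.03. These genes lie in a cluster of similar copies among which reads may be shared. SLAM receptors, which tune contacts between immune cells, were higher in 5 of 7 (median 2.09), with Ly9 at 3.65 and Cd84 at 2.09. Slamf7 was called at 2.83, but its groups overlapped at a low level, with 0.193 CPM in 5xFAD-Dp16 9 and 0.214 CPM in Dp16 5. Sialic acid-binding lectins were higher in 4 of 7 (median 1.09), including Cd22 at 2.04 and Cd33, an Alzheimer risk ortholog, at 1.09. CD300 receptors were higher in 2 of 3 (median 1.05). Of the members looked up, only 3 of 12 CD300 receptors and 8 of 15 PYHIN genes were tested. A gene can pass the low-count filter through the group where it is high, so these shares do not describe the whole families.

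Checkpoint and inhibitory receptors and ligands were higher in 8 of 13 tested (median 1.28), with Pdcd1 at 3.31, Lag3 at 1.65, Havcr2 at 1.64 and Cd274 at 1.29. Chains of cytokine receptors were higher in 15 of 29 (median 0.743), and transcription factors of myeloid cells in 14 of 29 (median 0.52), among them Bcl3 at 2.30, Elf4 at 1.63 and Irf5 at 1.45. Enzymes of eicosanoid synthesis were higher in 5 of 15 (median 0.539), with Tbxas1 at 1.58. Alox5 was called at 1.68, but its groups overlapped, with 0.772 CPM in 5xFAD-Dp16 9 and 0.909 CPM in Dp16 5. Of P2 and adenosine receptors 4 of 16 were higher (median 0.322): P2ry6, P2ry13, P2ry12 and P2rx7.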
